A study of Mus musculus with 18 samples.

Results

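Carcinomas at 20 weeks were compared with high grade dysplasia (HGD) at 6 weeks in the azoxymethane and dextran sulphate sodium model of colitis-associated colorectal cancer. The comparison rests on 6 of the 18 arrays of the study, 3 per stage, chosen by the stage and week in their titles. Azoxymethane (AOM) is a colon carcinogen, and dextran sulphate sodium (DSS) in the drinking water injures the colonic epithelium and inflames the mucosa. The carcinoma mice received 10 mg/kg AOM on day 1 and 3 cycles of DSS (2% on days 8 to 14, 1.5% on days 29 to 33 and 1.5% on days 50 to 54), and their tissue was taken on day 140. The HGD mice received the same AOM injection and the first 2 of those cycles, and their tissue was taken on day 42. All were male ICR mice, an outbred stock, 6 weeks old at the start, so the arrays may also differ in the genetic background of the animal or animals sampled. The 12 other arrays are of saline-treated normal mucosa at 2 weeks, inflamed mucosa at 2 weeks, low grade dysplasia (LGD) at 4 weeks and HGD with active inflammation at 8 weeks. The pathology was read under the microscope, and the labels call the replicates biological without saying whether animals were pooled.

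Neither stage was sampled under DSS: the carcinomas came 86 days after the last exposure and the HGD lesions 9 days after it. Stage, age, time since DSS and the third DSS cycle differ together between the groups, and their parts cannot be told apart. In this model lesions arise with active Wnt signalling, in which nuclear beta-catenin drives genes such as Axin2 and Lgr5, and progression is followed from dysplasia to invasive growth. Passing from dysplasia to carcinoma is classically described with altered proliferation, loss of p53 control and a changed stroma of blood vessels, fibroblasts and immune cells. The arrays measure whole tissue, in which fewer cells of a type and less RNA per cell cannot be told apart.

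Levels are given as log2(signal + 16), in which 1 unit is a 2-fold difference for a well-expressed gene and less than the true fold for a dim one. For 12878 genes the means of the groups were compared with limma, which shares its estimate of spread over the 18 arrays. No gene passed an adjusted p of 0.05 (0 genes, 0% of those tested), and the smallest adjusted p was 0.67, shared by 4 genes: Sox17, Rbm14, Senp8 and Pagr1a. At an unadjusted p under 0.05, 176 genes were higher in carcinoma (1.37%) and 404 were lower (3.14%). Single HGD arrays moved these counts, to 101 higher and 170 lower without HGD replicate 2, 226 lower without HGD replicate 1, and 270 higher and 607 lower without HGD replicate 3. No gene is therefore said here to have risen or fallen, and what follows gives values, sizes and whether the 3 carcinoma arrays lay entirely on one side of the 3 HGD arrays, which is called apart. By that measure 631 genes were higher (4.9%) and 1214 lower in carcinoma (9.43%), 14.3% in all. Without regard to separation, 5460 of the 12878 genes had a higher mean in carcinoma and 7418 a lower one. These shares and counts are the background against which each gene group below is to be read.

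The median absolute difference was 0.11 on the log2 scale, the middle 90% of genes lay between -0.34 and 0.31, and the median difference was -0.03. A mean difference of at least 1 was found for 31 genes that were higher (0.241%) and 34 that were lower (0.264%), and for only 31 of these 65 genes were the arrays apart, 8 higher and 23 lower. Among the 15 pairs that the 6 groups of the study form, this pair had the fewest genes past a 2-fold mean difference, 65, where HGD at 8 weeks against LGD had 117 and HGD at 8 weeks against HGD at 6 weeks had 155. By median absolute difference it ranked 2 of 15 from the smallest, after HGD at 8 weeks against HGD at 6 weeks (0.11 in each when rounded), and by the share of genes apart it ranked 4 (14.3%, against 6.7%, 10.2% and 12.3%). The median SD within a group was 0.14 for carcinoma and 0.13 for HGD. The median half-width of the 95% interval of a difference was 0.34, and for 11432 genes (88.8%) that interval lay wholly between -1 and 1. For those genes a difference of 1 in either direction is outside the interval. That is a 2-fold change for a well-expressed gene. For a dim gene a 2-fold change is less than 1 unit and may lie inside the interval. Smaller differences are not resolved by 3 arrays a group.

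**Figure D1:**
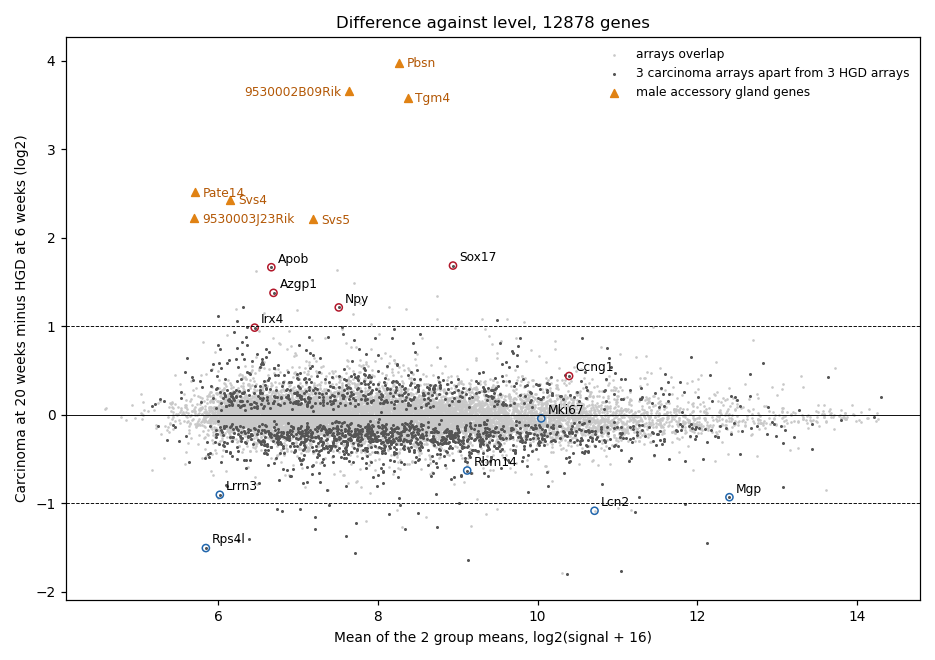
Difference in mean log2(signal + 16), carcinoma at 20 weeks minus HGD at 6 weeks (vertical axis), against the mean of the 2 group means (horizontal axis), 1 point per gene for 12878 genes. Dark points are genes whose 3 carcinoma arrays are apart from the 3 HGD arrays, dashed lines mark differences of 1 and -1, and triangles are 7 genes of male accessory glands, which have the highest mean differences although their arrays overlap.

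The median signal of the arrays was 56.6 to 57.1 in carcinoma and 55.7 to 56.9 in HGD, and their Gapdh 3' to 5' log2 ratios lay between -0.02 and 0.07 in carcinoma and between -0.03 and 0.05 in HGD. The Actb 3' to 5' log2 ratio was 0.58 to 0.68 in carcinoma and 0.49 to 0.57 in HGD, and the mean level of the 18S RNA probe sets 10.55 to 10.86 in carcinoma and 10.40 to 10.52 in HGD. Both of these did not overlap between the stages, and their part in the results was not tested. Correlations across genes were 0.959 to 0.981 among carcinoma arrays, 0.978 to 0.985 among HGD arrays and 0.958 to 0.983 between them. Colonic epithelial genes were high in both stages. Epcam, an epithelial adhesion molecule, was at 13.26, 13.10 and 12.86 in the carcinomas and 13.15, 13.14 and 13.22 in HGD, and Cdx2, the intestinal identity factor, at 8.92, 8.49 and 8.56 in carcinoma and 8.80, 8.96 and 8.58 in HGD. Carcinoma replicate 1 stood somewhat apart from replicates 2 and 3, with its correlations to them at 0.959 and 0.968 against 0.981 between those 2. It had the lowest mean of the Wnt target list of the 3, 1.11 above normal mucosa where replicates 2 and 3 were at 1.87 and 1.63 and the HGD arrays at 1.91, 1.73 and 1.49.

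Some arrays carried transcripts of male accessory sex glands, which lie beside the distal colon and rectum. Pbsn, the prostate secretory protein probasin, was at 4.66, 13.02 and 13.08 in carcinoma replicates 1, 2 and 3 and at 4.53, 4.56 and 9.74 in the HGD replicates, so that carcinoma replicates 2 and 3 and HGD replicate 3 stood high. Svs4, a seminal vesicle secretory protein, was at 4.48, 13.22 and 4.41 in carcinoma and 5.90, 4.51 and 4.41 in HGD, high in carcinoma replicate 2 alone. Tgm4, the prostate transglutaminase, was at 6.69, 12.11 and 11.70 in carcinoma and 6.68, 6.82 and 6.26 in HGD. Over 13 such genes the mean level was 4.87, 11.16 and 6.79 in carcinoma and 5.16, 4.90 and 5.73 in HGD, and it was also high in HGD at 8 weeks replicate 2, at 11.14. This list was put together after its values were seen. All 7 members that could be tested had higher means in carcinoma, by 2.21 to 3.98, and none was apart, because carcinoma replicate 1 was at the HGD level. These are the 7 highest mean differences of the whole comparison, and they follow single arrays and not the stage. Members were tested only if at least 3 arrays of the study passed a cut on low signal. High carcinoma arrays helped to meet that cut, so the shared direction is not a separate result. Msmb, which was not tested, went the other way, at 4.65, 5.09 and 4.75 in carcinoma and 4.79, 4.70 and 8.46 in HGD. The other untested members were highest in carcinoma replicate 2. Carcinoma replicate 2 was also high for the squamous keratin Krt6b, at 10.58, where carcinoma replicates 1 and 3 were at 5.69 and 5.58 and HGD at 5.67, 5.64 and 5.68. For genes named below, the levels in carcinoma replicate 1, where the gland genes were at the HGD level, and in HGD at 8 weeks replicate 2, where they were high, are given where they bear on this.

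**Figure D2:**
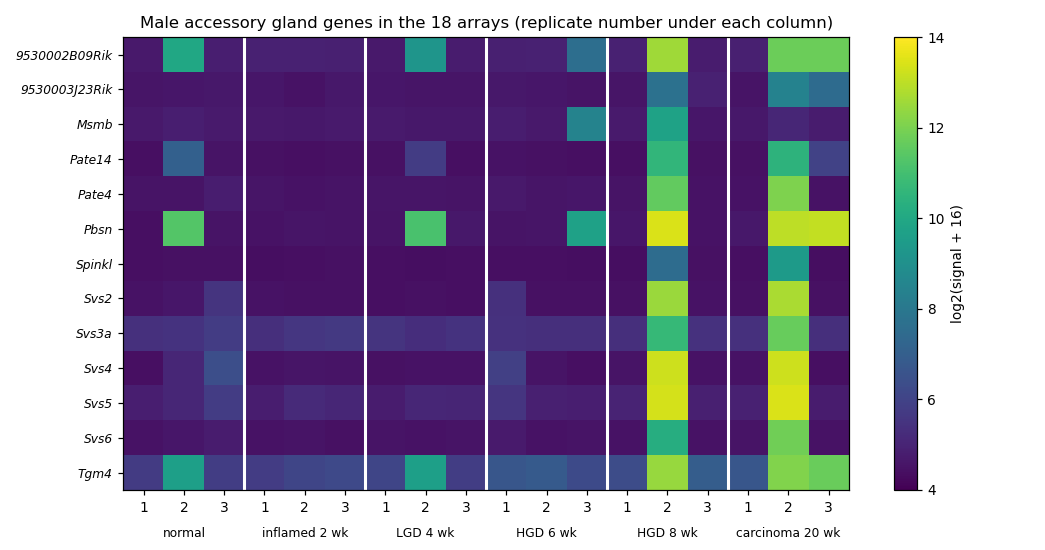
Level of 13 male accessory gland genes, log2(signal + 16) as colour, in the 18 arrays in order of stage, with the replicate number under each column. The mean over the genes was 11.16 in carcinoma replicate 2 and 11.14 in HGD at 8 weeks replicate 2, and 4.87 in carcinoma replicate 1.

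Genes higher in carcinoma were headed by Sox17. This SoxF transcription factor acts in endoderm and in arterial endothelium, and it is known to antagonise beta-catenin in intestinal tumours. Sox17 was at 8.90, 10.53 and 9.92 in the carcinoma arrays and at 8.28, 8.35 and 7.67 in the HGD arrays. All 3 carcinoma arrays lay above all 15 other arrays of the study, for which the group means were 6.90 in normal mucosa, 7.84 in inflamed mucosa, 6.95 in LGD, 8.10 in HGD at 6 weeks and 7.69 in HGD at 8 weeks. The difference was 1.69 ± 0.34 (SE, n = 3 per group, 95% interval 0.96 to 2.41), a 3.22-fold higher level, with an unadjusted p of 1.86e-04 and an adjusted p of 0.67 by limma. The second probe set of the gene was also apart, with means of 7.58 in carcinoma and 6.66 in HGD. The related gene Sox18 went the other way without separation, at 7.0, 7.4 and 7.7 in carcinoma and 8.3, 7.8 and 7.7 in HGD. In carcinoma replicate 1 Sox17 stood 0.59 above the mean of the HGD arrays without Pbsn signal, and in HGD at 8 weeks replicate 2 it was at 8.1, where the gland genes were high. Other differences were also smaller than with all arrays when only carcinoma replicate 1 and HGD replicates 1 and 2 were set side by side. These were Irx4 (0.22), Eda2r (0.21), Psrc1 (0.44), Egf (0.54) and Azgp1 (0.95). The difference was larger for Apob (2.14) and Sgk1 (1.21).

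Apob, which encodes the apolipoprotein of chylomicrons, was at 7.93, 7.33 and 7.24 in carcinoma and 5.60, 5.99 and 5.91 in HGD, a difference of 1.67 ± 0.42 (unadjusted p = 0.00128, adjusted p = 0.999 by limma). Its carcinoma replicate 1 was the highest. Its second probe set differed by 0.24. Irx4, an Iroquois homeobox factor, was at 6.36, 7.58 and 6.91 in carcinoma and 6.02, 6.25 and 5.63 in HGD, and Psrc1, a spindle protein described as a p53 target, at 7.22, 7.68 and 7.82 in carcinoma and 6.73, 6.83 and 6.53 in HGD. The carcinoma arrays of Irx4 and Psrc1 were above all 15 other arrays, as were those of Ms4a10, at 7.41, 7.36 and 7.45 in carcinoma and 6.36, 6.90 and 6.59 in HGD. Such genes number 43 (0.334%), and those with the carcinoma arrays below all 15 others number 65 (0.505%). Sgk1, a kinase induced by mineralocorticoids, was at 11.27, 10.78 and 10.91 in carcinoma and 10.15, 9.98 and 10.23 in HGD. It averaged 11.24 in normal mucosa. Only carcinoma replicate 1 reached that mean, and the HGD arrays lay further below it than the other carcinoma arrays did.

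Of the other genes in the rule's upper 12, Npy (neuropeptide Y) was higher by 1.21 ± 0.39, Neurl3 by 0.81 ± 0.25 and Man1a, a Golgi mannosidase, by 0.81 ± 0.23. Azgp1, a secreted zinc-binding glycoprotein, was at 6.94, 7.95 and 7.26 in carcinoma and 5.91, 6.07 and 6.04 in HGD. Egf, the epidermal growth factor, was at 6.23, 7.08 and 6.97 in carcinoma and 5.71, 5.67 and 5.73 in HGD. Both were also high in the array of HGD at 8 weeks that held the gland transcripts, at 7.8 for Azgp1 and 7.0 for Egf, against 6.0 and 6.1 for Azgp1 and 5.6 and 5.7 for Egf in the 2 others, and the part of the gland transcripts in their differences was not tested. In carcinoma replicate 1 Azgp1 and Egf were above every HGD array at 6 weeks. Cdkn2a, the locus of the p16 and p19 growth inhibitors, was at 6.13, 6.57 and 6.96 in carcinoma and 5.29, 5.86 and 5.16 in HGD (difference 1.11 ± 0.40), and was taken up after its values were seen. Its levels in HGD at 8 weeks were 5.2, 6.7 and 6.5, which overlap those of carcinoma.

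**Figure D3:**
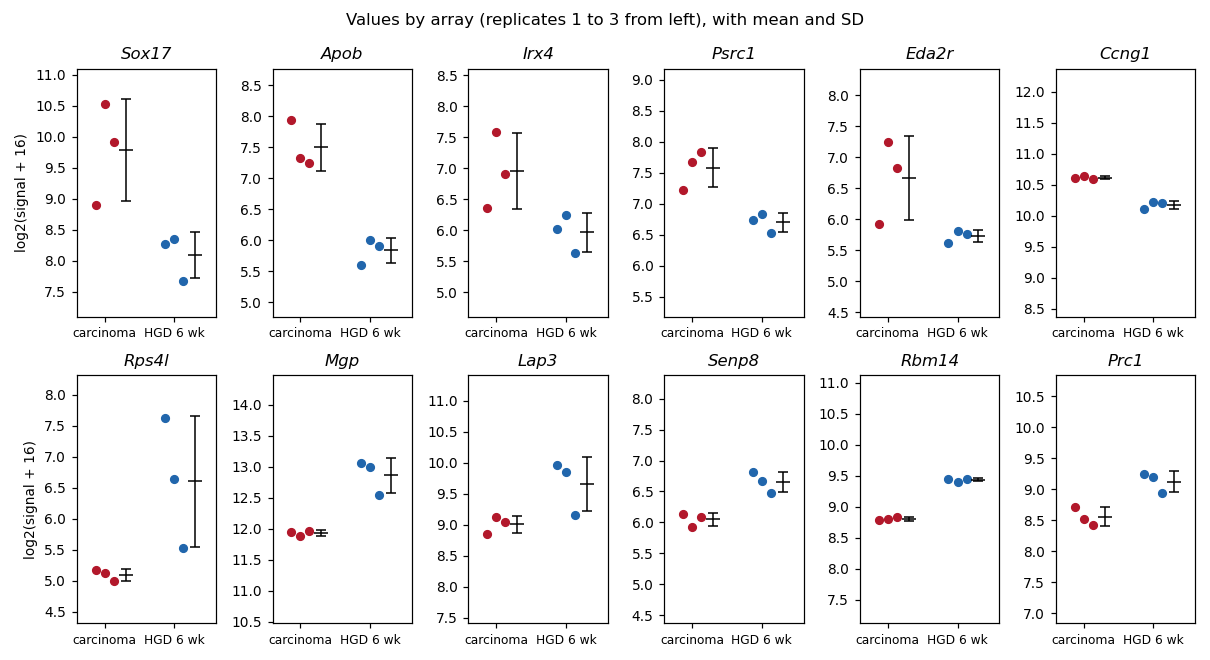
Levels of 12 genes, log2(signal + 16), in the 3 carcinoma arrays at 20 weeks (left of each panel) and the 3 HGD arrays at 6 weeks (right), replicates 1 to 3 from left, with the mean and SD beside them. Every panel spans the same range of levels. Rbm14 and Ccng1 show the tightest groups, with all arrays of a stage within a narrow band, and Rps4l the widest HGD group, from 5.53 to 7.63.

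Among genes lower in carcinoma, Rbm14 separated the stages with the least scatter. This gene encodes an RNA-binding coactivator of paraspeckles. It was at 8.78, 8.79 and 8.84 in carcinoma and 9.44, 9.41 and 9.45 in HGD, a difference of -0.63 ± 0.13 (unadjusted p = 2.08e-04, adjusted p = 0.67 by limma). All 5 of its probe sets, 4 of which passed the filter on low signal, were apart in the same direction, with differences from -0.63 to -0.38. The group means were 9.40 in normal mucosa, 8.87 in inflamed mucosa and 9.63 in LGD, so that inflamed mucosa was near the carcinoma level and the other two near HGD. Senp8, the protease that removes NEDD8, was at 6.14, 5.93 and 6.09 in carcinoma and 6.81, 6.66 and 6.48 in HGD, and Pagr1a, a component of a histone methyltransferase complex, at 8.12, 8.19 and 8.43 in carcinoma and 8.76, 8.78 and 8.75 in HGD.

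Rps4l, a ribosomal protein paralogue, was at 5.17, 5.12 and 4.99 in carcinoma and 7.63, 6.65 and 5.53 in HGD. Its difference of -1.51 ± 0.39 was the widest among the lower genes taken by the rule, and its carcinoma arrays lay below all 15 others. Mgp, matrix Gla protein, an inhibitor of calcification made by stromal cells, was at 11.95, 11.89 and 11.97 in carcinoma and 13.06, 12.99 and 12.54 in HGD, and averaged 11.91 in normal mucosa and 13.69 in inflamed mucosa. The carcinomas thus held Mgp at the normal level. Lap3, a leucine aminopeptidase, was at 8.84, 9.12 and 9.04 in carcinoma and 9.97, 9.85 and 9.16 in HGD. HGD replicate 3 was the lowest HGD array for Rps4l, Mgp and Lap3, and also for Lrrn3, at 5.77 against 6.80 and 6.86. Without that replicate Lap3 had a difference of -0.91 and an adjusted p of 0.0372 by limma, the 1 gene past the threshold in that fit. Thap2, Josd2, Tlcd3a and Agfg1 were lower by 0.57 to 0.68 with arrays apart. Of the further probe sets of Agfg1, 1 was higher in carcinoma, by 0.23, and the second probe set of Thap2 differed by -0.12.

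Of the 23 lower genes with a difference of at least 1 and arrays apart, those of largest difference besides Rps4l and the mast cell genes given below were Prkg2, Scn2b, Clca4b and Slc38a4, taken up after their values were seen. Prkg2, a cGMP-dependent kinase, was at 7.65, 9.10 and 8.18 in carcinoma and 10.30, 10.22 and 9.35 in HGD. Scn2b, a sodium channel subunit, was at 6.58, 7.49 and 6.74 in carcinoma and 8.26, 8.93 and 8.32 in HGD. Of the 6 carcinoma and HGD arrays compared, carcinoma replicate 1 was the lowest for each of the 4 genes. It was far below replicates 2 and 3 for Clca4b, at 9.45, 12.41 and 12.32 in carcinoma and 12.65, 12.88 and 13.02 in HGD. Slc38a4, an amino acid transporter, was at 4.97, 5.82 and 5.85 in carcinoma and 7.97, 6.84 and 6.09 in HGD. The unadjusted p-values of the 4 genes were 0.0323 to 0.269.

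Genes of mitosis had lower mean levels in carcinoma. In dividing cells these genes are switched on together in late cycle, and their promoters often hold sequence elements called CHR and CCAAT. Their products build the spindle, condense chromosomes and control the exit from mitosis. Of 24 members tested, 24 had a lower mean in carcinoma, as did 7418 of all 12878 genes. With arrays apart, 13 were lower (54.2%, against 9.43% of all genes) and none higher. The median difference was -0.35, against -0.03 over all genes. By limma 12 members were lower at an unadjusted p under 0.05, as were 3.14% of all genes. Without HGD replicate 3, 21 members were lower and apart, and so were 2640 of all genes. No member passed the adjusted threshold, and since these genes vary together across samples the members are not 24 separate observations.

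The midzone crosslinker Prc1 led the list, at 8.72, 8.52 and 8.42 in carcinoma and 9.24, 9.19 and 8.93 in HGD, a difference of -0.57 ± 0.15 (unadjusted p = 0.00225, adjusted p = 0.999 by limma). Its second probe set was apart too, at -0.40. Spc25, a kinetochore subunit outside the list, was at 7.72, 7.45 and 7.49 in carcinoma and 8.36, 8.30 and 7.80 in HGD. Of the kinases, Bub1, a spindle checkpoint kinase, differed by -0.49 ± 0.18, Aurka by -0.53 ± 0.21 and Cdk1, the kinase that starts mitosis, by -0.51 ± 0.20. Top2a, which untangles chromosomes, differed by -0.39 ± 0.17 and Kif11, the motor that separates spindle poles, by -0.35 ± 0.15. Mki67, the usual marker of cycling cells, was the least different of the list, at 10.25, 9.95 and 9.88 in carcinoma and 10.24, 9.94 and 10.02 in HGD, and its arrays overlapped.

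The list mean, as a difference from normal mucosa, was 0.03, 0.02 and -0.25 in carcinoma and 0.39, 0.35 and 0.06 in HGD. The stages did not overlap, but HGD replicate 3 was next to carcinoma replicates 1 and 2. The normal arrays were at -0.05, 0.16 and -0.11. HGD replicates 1 and 2 lay above all of them, HGD replicate 3 and carcinoma replicates 1 and 2 within their range, and carcinoma replicate 3 below it, and at 8 weeks the highest array was at 0.57. Psrc1, a spindle gene outside the list, was higher in carcinoma, as given above. DNA replication genes, which act in S phase, had 7 of 27 members lower with arrays apart (25.9%, against 9.43%), none higher, and a median of -0.25. Cdc45, a subunit of the replicative helicase, was at 6.35, 6.56 and 6.39 in carcinoma and 6.90, 6.89 and 6.57 in HGD. Rrm1, a ribonucleotide reductase subunit, differed by -0.31 ± 0.14 with arrays apart. Pcna, the sliding clamp, differed by -0.35 and Mcm6 by -0.46, both with overlap. The mean of that list overlapped between the stages, at -0.06 to 0.36 in carcinoma and 0.18 to 0.47 in HGD. Of 20 ribosome biogenesis genes, none was apart, and the median was -0.09.

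**Figure D4:**
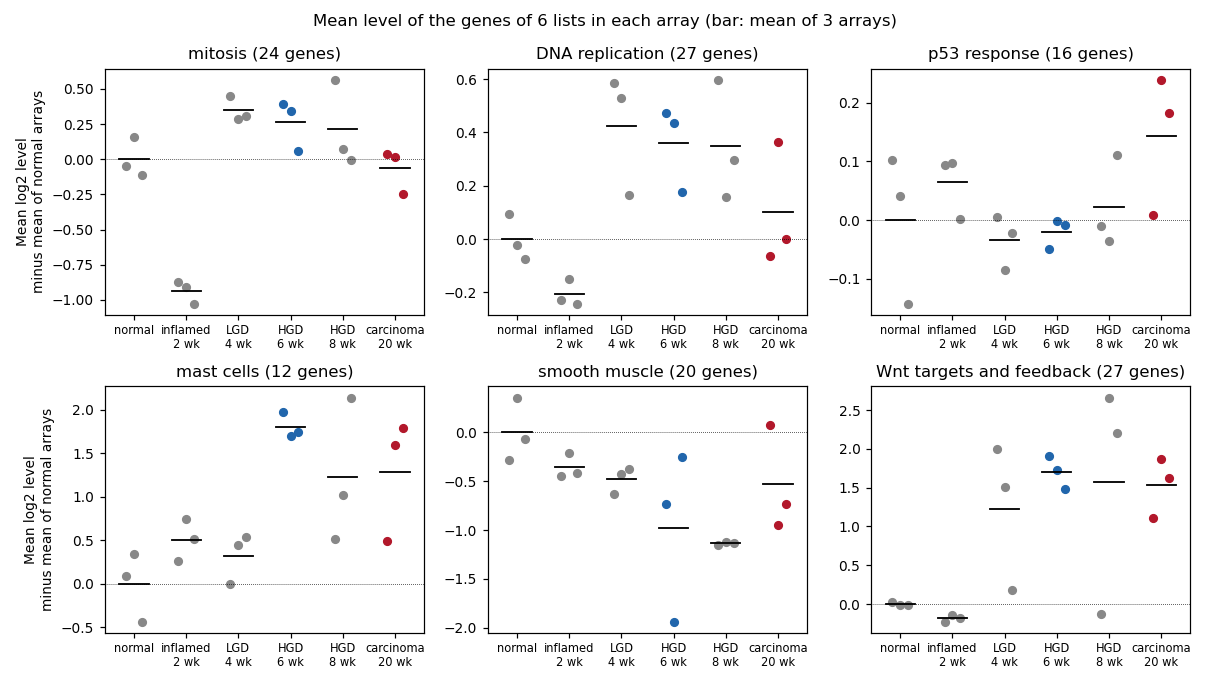
Mean level of the genes of 6 lists in each of the 18 arrays, as the log2 difference from the mean of the normal arrays, by stage from normal mucosa to carcinoma, with bars at the group means. Mitosis genes are lower in the 3 carcinoma arrays (-0.25 to 0.03) than in the 3 HGD arrays at 6 weeks (0.06 to 0.39), and the lists for mast cells, smooth muscle and Wnt targets show carcinoma replicate 1 away from replicates 2 and 3.

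RefSeq promoters (build GRCm38.p6, 250 bases before to 50 after the first start listed) were found for 20 of the 24 mitosis genes. The CHR element, searched as TTTGAA and TTCGAA on both strands, was in 16 of the 20 (80%), against 19.4% of 27025 promoters of the same length. The CCAAT box, searched as CCAAT on both strands, was in 18 of 20 (90%), against 37.9%, and both were in 16 of 20, against 7.7%. Of the 10 promoters found for members lower with arrays apart, 7 held CHR (70%) and 8 CCAAT (80%), no larger shares than in the whole list. Of the 20 DNA replication promoters found, 5 held CHR and 15 CCAAT. A match is a stretch of letters and not evidence of binding here. The 3 mitosis genes apart with the smallest p whose promoters are in the table are shown, 5' to 3' on the gene's strand, with CHR and CCAAT matches in capitals: Prc1 (chr7:80294201-80294500, plus strand, 1 CHR and 1 CCAAT), Bub1 (chr2:127831810-127832109, minus strand, 1 CHR and 2 CCAAT) and Aurka (chr2:172370521-172370820, minus strand, 1 CHR and 2 CCAAT).
Prc1: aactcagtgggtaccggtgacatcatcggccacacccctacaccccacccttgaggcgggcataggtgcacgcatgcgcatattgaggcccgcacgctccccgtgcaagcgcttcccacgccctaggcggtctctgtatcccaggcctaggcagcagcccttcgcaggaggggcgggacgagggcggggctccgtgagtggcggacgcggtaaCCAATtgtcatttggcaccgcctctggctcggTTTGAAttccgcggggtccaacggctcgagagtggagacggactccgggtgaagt
Bub1: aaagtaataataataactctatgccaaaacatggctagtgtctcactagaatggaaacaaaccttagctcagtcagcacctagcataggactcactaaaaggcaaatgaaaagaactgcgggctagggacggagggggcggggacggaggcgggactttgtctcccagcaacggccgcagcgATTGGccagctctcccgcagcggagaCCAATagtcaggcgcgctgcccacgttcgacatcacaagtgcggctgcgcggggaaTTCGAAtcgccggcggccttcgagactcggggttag
Aurka: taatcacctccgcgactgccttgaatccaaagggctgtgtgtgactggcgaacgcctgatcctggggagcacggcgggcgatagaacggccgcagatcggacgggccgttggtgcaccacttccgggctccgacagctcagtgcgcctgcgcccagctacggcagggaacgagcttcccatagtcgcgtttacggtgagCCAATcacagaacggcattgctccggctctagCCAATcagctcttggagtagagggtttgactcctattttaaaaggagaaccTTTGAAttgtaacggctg

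In the p53 response, 5 of 16 genes were higher in carcinoma with arrays apart (31.2%, against 4.9% of all genes) and none lower. The transcription factor p53 is activated by DNA damage and switches on genes of arrest, repair and death. Ccng1, cyclin G1, a direct p53 target, was at 10.60, 10.64 and 10.59 in carcinoma and 10.10, 10.22 and 10.21 in HGD. The difference was 0.44 ± 0.11 (unadjusted p = 0.00126, adjusted p = 0.999 by limma), the carcinoma arrays were above all 15 others, and normal mucosa averaged 10.35. The 2 further probe sets of Ccng1 were higher by 0.23 and 0.17 with overlap. Eda2r, a p53-induced receptor of ectodysplasin A2, was at 5.93, 7.24 and 6.83 in carcinoma and 5.62, 5.81 and 5.76 in HGD, so that carcinoma replicate 1 was close to the HGD arrays. Zmat3, an RNA-binding p53 target, was higher by 0.55 ± 0.23, Trp53inp1 by 0.37 ± 0.15 and Sesn1, a stress-induced inhibitor of mTORC1 signalling, by 0.51 ± 0.29. Sesn1 was barely apart, with carcinoma replicate 1 at 8.7061 and HGD replicate 3 at 8.7054.

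The best known targets did not separate the stages. Cdkn1a, the p21 inhibitor of cyclin-dependent kinases, was at 11.73, 11.20 and 11.45 in carcinoma and 11.57, 11.49 and 11.40 in HGD, and Mdm2, the ubiquitin ligase of p53, differed by 0.04. Btg2 was at 8.88, 10.31 and 10.21 in carcinoma and 10.63, 10.50 and 10.02 in HGD. The median of the list was 0.09. Its mean over normal mucosa was 0.01, 0.24 and 0.18 in carcinoma and at or below 0 in the HGD arrays, the lowest at -0.05, so that carcinoma replicate 1 adjoined them. With probe sets of suffix _x_at, _s_at or _a_at left out, 3 members were apart. The p53 half-site, searched by its consensus with no mismatch, was in 4 of the 12 promoters of the list found in the table, against 8.37% of all promoters. Ccng1 (chr11:40755237-40755536, minus strand, 1 half-site, in capitals) is the member apart with the smallest p and is shown.
Ccng1: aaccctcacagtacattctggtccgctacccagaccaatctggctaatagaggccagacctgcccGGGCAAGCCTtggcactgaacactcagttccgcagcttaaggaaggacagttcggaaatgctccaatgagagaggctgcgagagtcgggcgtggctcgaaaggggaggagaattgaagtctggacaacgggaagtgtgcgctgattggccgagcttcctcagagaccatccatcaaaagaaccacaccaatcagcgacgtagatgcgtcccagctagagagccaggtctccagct

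Mast cell genes were lower in carcinoma with arrays apart for 5 of 12 members (41.7%, against 9.43%), and 1 was higher with arrays apart. Mast cells store proteases in granules and bind IgE through a high-affinity receptor, and mucosal mast cells expand in the inflamed gut. Mcpt1, the mucosal chymase, was at 6.93, 10.65 and 10.82 in carcinoma and 11.50, 11.37 and 10.93 in HGD. Mcpt2 was at 7.90, 11.08 and 11.49 in carcinoma and 12.38, 11.82 and 11.59 in HGD. The mean differences were -1.80 ± 1.15 and -1.77 ± 1.08, and in both genes carcinoma replicate 1 lay far below replicates 2 and 3, which were just under the HGD arrays. Mcpt4 had the smallest p, at 6.56, 6.94 and 7.30 in carcinoma and 8.09, 7.70 and 7.57 in HGD (difference -0.85 ± 0.33, unadjusted p = 0.0227). Fcer1a, the alpha chain of the IgE receptor, and Cpa3, a granule carboxypeptidase, differed by -1.16 and -0.94. Ms4a2, the beta chain of that receptor, and Kit went the other way, by 0.27 and 0.38 with overlap. The connective tissue tryptases Tpsb2 and Tpsab1 differed by 0.20 and -0.22, and Cma1 and Hdc by -0.57 and -0.17, all with overlap. Gata2 was the member higher with arrays apart. The list mean over normal mucosa was 0.49, 1.59 and 1.79 in carcinoma and 1.98, 1.70 and 1.75 in HGD.

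Other immune gene lists had few members apart. Of 19 macrophage genes 15 had a lower mean in carcinoma, against 7418 of 12878 over all genes. Of the 19, 3 were apart (15.8%, against 14.3% of all genes in either direction), Cd68, Cd14 and Fcgr3, by 0.43 to 0.45. Of 16 T and NK cell genes 2 were lower and apart, Nkg7 and Cd4, against 9.43% of all genes. Nkg7, a granule protein of cytotoxic cells, was at 6.09, 5.76 and 6.54 in carcinoma and 6.57, 7.16 and 6.97 in HGD. Interferon response genes had a lower mean in carcinoma for 23 of 24 members (7418 of 12878 over all genes) and a median of -0.40, but none was apart. Gbp6 was at 6.91, 6.91 and 8.59 in carcinoma and 7.79, 8.13 and 8.34 in HGD, with carcinoma replicate 3 the highest of the 6. Among chemokines, Ccl7 was lower by 1.02 ± 0.64 and Cxcl11 by 1.06 ± 0.40, each with arrays apart. Neutrophil genes, 17 tested, had none apart and a median of 0.05, and the 9 genes of MHC class II presentation had none apart, with higher means in carcinoma for 4 and lower for 5. Lcn2, the iron-binding lipocalin of inflamed epithelium and neutrophils, was at 8.48, 10.80 and 11.23 in carcinoma and 11.90, 11.55 and 10.32 in HGD, and Ptgs2, cyclooxygenase 2, at 6.46, 7.81 and 8.08 in carcinoma and 9.07, 9.10 and 6.85 in HGD. Both overlapped, and their standard errors, 1.07 and 1.02, were as large as their differences of -1.09 and -0.89.

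Of 16 B and plasma cell genes 4 were higher in carcinoma with arrays apart (25%, against 4.9%) and none lower, with a median of 0.21. Jchain, which joins polymeric antibodies, was at 13.7, 13.8 and 14.1 in carcinoma and 13.5, 13.4 and 13.3 in HGD. Igha, Xbp1 and Sdc1 were higher by 0.20 to 0.24, while the B cell genes Ms4a1 and Cr2 differed by -0.65 and -0.46 with overlap. Of 22 endoplasmic reticulum stress genes 4 were higher with arrays apart (18.2%, against 4.9%), Sel1l, Creld2, Hsp90b1 and Xbp1, which is in both lists, and none lower. The means of 16 of the 22 were higher in carcinoma and of 6 lower, against 5460 higher and 7418 lower over all genes. Of 21 goblet cell genes 3 were higher with arrays apart (14.3%, against 4.9%), Fcgbp, Ang4 and Fer1l6. Muc2, the secreted mucin of goblet cells, was at 13.94, 13.18 and 13.45 in carcinoma and 13.32, 12.82 and 13.11 in HGD, where only HGD replicate 1 overlapped.

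**Figure D5:**
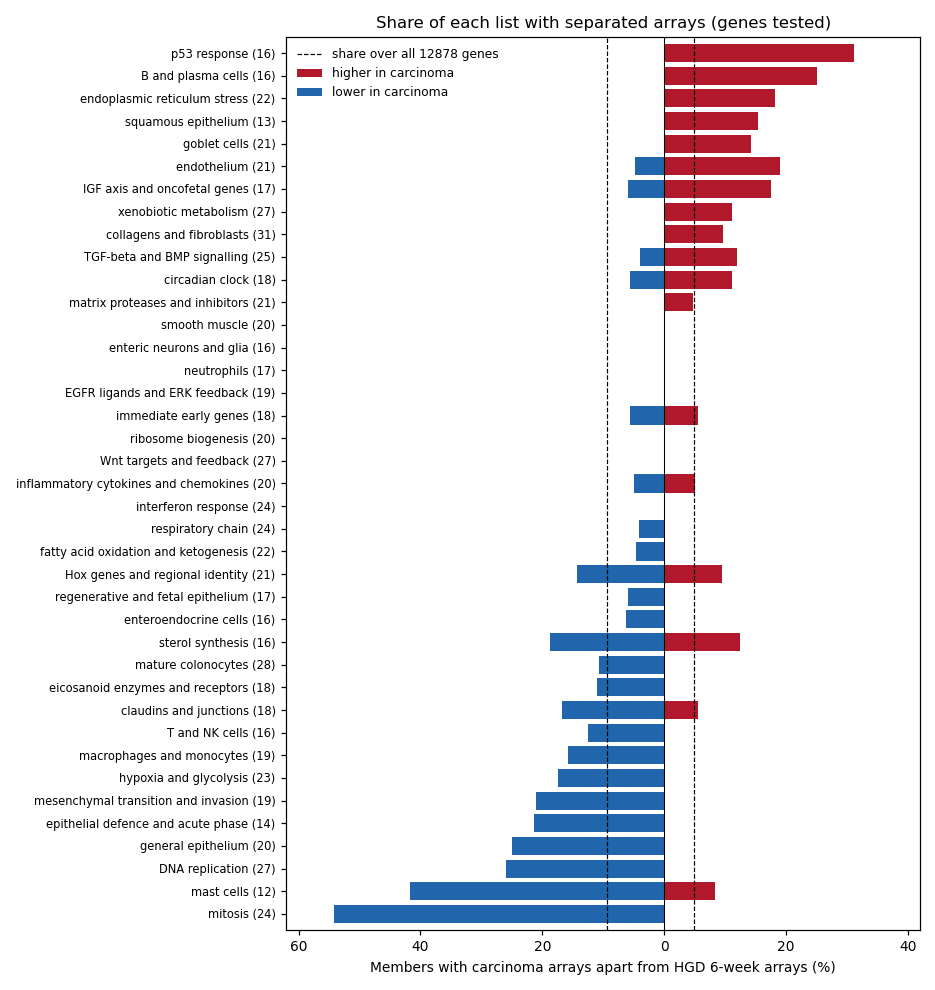
Share of the genes of each list whose 3 carcinoma arrays are apart from the 3 HGD arrays, higher in carcinoma to the right and lower to the left, in percent, for lists with at least 12 genes tested (number in brackets). Dashed lines give the shares over all 12878 genes, 4.9% higher and 9.43% lower. Mitosis (54.2% lower) and mast cells (41.7% lower) lie farthest left, and p53 response (31.2% higher) and B and plasma cells (25% higher) farthest right.

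Wnt targets, which mark these lesions, did not separate the stages. Of 27 tested none was apart, with a median of -0.21. Axin2, the feedback scaffold of the pathway, was at 9.18, 10.17 and 9.63 in carcinoma and 10.12, 9.83 and 9.73 in HGD, both above the normal mean of 7.81. Lgr5, the stem cell receptor, was at 7.07, 8.01 and 7.80 in carcinoma and 8.36, 8.19 and 7.71 in HGD, with 6.62 in normal mucosa. Myc was at 7.74, 8.67 and 8.04 in carcinoma and 8.38, 8.25 and 8.01 in HGD. The 95% intervals of these differences were wide for Axin2 (-1.73 to 1.26) and Lgr5 (-2.39 to 1.47) and narrower for Myc (-0.47 to 0.35). These intervals rest on the spread within all 6 groups, so groups outside the comparison widened them. For Axin2 the SD was 0.50 in carcinoma and 0.20 in HGD at 6 weeks, but 1.94 in HGD at 8 weeks and 1.09 in LGD. For Lgr5 the SD was 0.49 and 0.34 in the compared groups, but 2.45 in HGD at 8 weeks and 1.56 in LGD. No difference was detected, and the intervals for Axin2 and Lgr5 do not exclude a 2-fold one.

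General epithelial genes had 5 of 20 members lower in carcinoma with arrays apart (25%, against 9.43%), each by at most 0.39, among them the transcription factor Elf3 (9.10, 9.04 and 8.86 in carcinoma and 9.39, 9.30 and 9.49 in HGD), Krt19 and Cldn7. Mature colonocyte genes had 3 of 28 lower and apart (10.7%), Aqp4, Krt20 and Saa1, near the background share. Car4, a carbonic anhydrase of surface colonocytes, was at 10.81, 11.67 and 11.04 in carcinoma and 11.23, 11.15 and 11.47 in HGD. Hypoxia and glycolysis genes had 4 of 23 lower and apart (17.4%, against 9.43%). The largest difference was that of Hk2, hexokinase 2, at 9.4, 10.4 and 10.2 in carcinoma and 10.8, 10.8 and 10.5 in HGD. Egln3, an oxygen-sensing prolyl hydroxylase, differed by -0.54.

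In the stroma, endothelial genes had 4 of 21 members higher in carcinoma with arrays apart (19%, against 4.9%) and 1 lower. These were Sox17, Vwf (von Willebrand factor, 0.64 ± 0.24), Cldn5 (0.21) and Egfl7 (0.17), and the venular receptor Ackr1 was lower. The endothelial adhesion genes Cdh5 and Pecam1 differed by 0.27 and 0.15 with overlap. The part of endothelial content in the Sox17 difference was not tested. Smooth muscle genes had higher means in carcinoma for 20 of 20 members (5460 of 12878 over all genes), with a median of 0.37, but none was apart. Their list mean was 0.08, -0.94 and -0.73 in carcinoma and -0.74, -1.93 and -0.25 in HGD, so the stages overlapped, with carcinoma replicate 1 the highest of the 6 arrays and HGD replicate 2 the lowest. Collagen and fibroblast genes had 3 of 31 higher and apart (9.68%, against 4.9%), Col18a1, Col12a1 and Thbs2, with a median of 0.27. Genes of mesenchymal transition and invasion had 4 of 19 lower and apart (21.1%, against 9.43%), none higher. Snai2, a repressor of epithelial adhesion genes, was at 8.4, 8.6 and 8.3 in carcinoma and 8.9, 8.9 and 9.0 in HGD, Vim, vimentin, differed by -0.29 and Itgb6, which with its partner activates TGF-beta, by -0.54. Of 17 genes of the IGF axis and oncofetal group, 3 were higher and apart (17.6%, against 4.9%), Igf2, Igfbp3 and Igfbp5, the last by 0.65 ± 0.29. In the same list 1 was lower and apart (5.88%, against 9.43%), the oncofetal chromatin protein Hmga2, at 7.2, 7.4 and 7.0 in carcinoma and 8.2, 8.2 and 7.7 in HGD.

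Insig1, which restrains sterol synthesis, was at 9.93, 9.40 and 9.18 in carcinoma and 8.97, 9.06 and 9.05 in HGD, above all 15 other arrays. Of 16 sterol synthesis genes 2 were higher and apart (12.5%, against 4.9%), Insig1 and Hmgcs1, and 3 lower (18.8%, against 9.43%), Sc5d, Nsdhl and Mvk. Of 21 Hox and regional identity genes 2 were higher and apart (9.52%, against 4.9%), Hoxd8 by 0.30 and Hoxd9 by 0.24. Lower and apart were 3 (14.3%, against 9.43%), Hoxb6, Hoxd11 and Hoxd13, with differences of -0.12, -0.26 and -0.34. The respiratory chain (1 of 24 apart), fatty acid oxidation (1 of 22), EGFR ligands and ERK feedback (0 of 19), tuft cells (0 of 8) and enteric neurons and glia (0 of 16) held no more separated genes than the background.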

How the data were processed

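RNA from colorectal tissue was hybridised to Affymetrix whole-genome mouse arrays, 1 array per sample. The deposited table holds signal intensity on a linear scale, and MAS5 is named in the submitters' processing notes. No source used here gives its scaling. The table has 45101 probe sets, of which 34945 carry 1 gene symbol. Intensities were taken as log2(signal + 16), kept where at least 3 of 18 arrays exceeded the table median of 56.49, and each gene was represented by its brightest probe set (12878 genes). Differences were fitted with limma 3.58.1 under R 4.3.3 (1 model of 6 groups, 12 residual degrees of freedom, intensity trend, Benjamini-Hochberg threshold 0.05). The number of arrays limits the precision. A permutation test of 3 against 3 arrays cannot go below p = 0.1. The code was tested on simulated data.

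Genes were named by rule: the 12 higher and 12 lower genes of largest difference with arrays apart, filled from unadjusted p under 0.01 because none passed, the leading member of each of 49 gene lists, and 9 fixed genes, of which Trp53 was not tested. Further list members were named after their values were seen. The members and lists were chosen with earlier results of these data known. Alternatives covered pseudocount, filter, normalization, model, probe set choice, a replicate block and each array left out. Same-numbered arrays of the 2 stages deviated together with correlations of -0.0856, 0.241 and 0.048, so the numbers were not treated as pairs.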

Additional observations from a re-analysis of the deposited data

How the results depend on the processing

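No gene passed the adjusted threshold with limma, or with the plain Student t-test on the 6 arrays after adjustment, and this held in every alternative but 2. Those were the fit without HGD replicate 3, in which Lap3 passed (difference -0.91, adjusted p = 0.0372), and a fit added after seeing the data that left out all arrays with Pbsn signal, in which 1 gene passed, Commd9 (-2.18, adjusted p = 0.00467). That fit compares 1 carcinoma array with 2 HGD arrays and assumes that the lone array varies like the other groups, and separation was not counted in it. In the other alternatives the smallest adjusted p was 0.055, for Sox17 without carcinoma replicate 1. With single arrays of the 2 stages left out, 101 to 270 genes were higher and 170 to 607 lower at an unadjusted p under 0.05, 0 to 1 gene passed, 944 to 1247 were apart and higher and 1677 to 2640 apart and lower, since 2 arrays separate from 3 more easily than 3 do (631 and 1214 without LGD replicate 2, which is not compared). For mitosis 13 to 21 members were apart and lower, and for the p53 response 5 to 6 were apart and higher. A gene apart with all arrays stays apart with 1 left out, so these counts could not fall below 13 and 5. At an unadjusted p under 0.05, the fit on only the 6 arrays gave 321 higher and 693 lower, the plain Student t-test 284 and 673, and the fit without Pbsn arrays 390 and 638. The p53 response had 3 members apart with suffixed probe sets left out. The replicate block gave 0 genes past the threshold and 556 at an unadjusted p under 0.05. The numbers do not pair the arrays, and replicates 2 and 3 but not 1 correlated best with their own number.

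Directions turned only for small or scattered differences. With single arrays left out, the difference ran from -0.49 to 0.0098 for Axin2, -0.32 to 0.15 for Myc, -0.36 to 0.072 for Car4, -0.16 to 0.10 for Cdkn1a, -0.16 to 0.042 for Mki67, -1.58 to 0.50 for H2-Eb1 and -0.19 to 0.012 for Alas2. The upper value came without carcinoma replicate 1 for Axin2, Myc and Car4, without carcinoma replicate 2 for Cdkn1a and H2-Eb1, without carcinoma replicate 3 for Alas2 and without HGD replicate 1 for Mki67. Without the Pbsn arrays the direction turned for Defa31 (-0.13), Mki67 (0.16) and Cdkn1a (0.20). Quantile normalization placed 5822 genes higher and 7056 lower, median centring 5133 and 7745, and the values as deposited 5460 and 7418. The cause of these shifts was not tested. Dim signal limits the folds of Rps4l, Senp8 and Eda2r, and likewise of Apob, Egf, Azgp1, Irx4 and Cdkn2a. Their levels lay near or below the table median in carcinoma or in HGD.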
